A study of Mus musculus with 29 samples.

Results

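The lysosome module described here holds 32 genes, chosen as a list of known lysosomal and proton pump genes, out of 27827 gene symbols in the count tables of this mouse stroke series. The list has 6 genes of the V0 membrane sector of the proton pump, 5 of its V1 catalytic sector, 2 accessory proteins of the pump, 8 lysosomal membrane proteins, 8 soluble lysosomal enzymes and 3 soluble activators and carriers. All 32 symbols stood in the tables of young and of aged brain, and 31 stood in the blood table, where Atp6v0d2 had no entry. In the brain of young mice, 10 of the 32 genes rose in microglia 2 days after stroke and 16 rose at 14 days, and 15 rose at 2 days in the cells coded as monocyte-derived. Of all genes tested there, 31.4%, 15.2% and 6.71% were called, so the share of module genes called in microglia at 2 days was near that of all genes, of which 15.7% were called higher. Gla, Cd63, Cd68, Grn, Atp6v0e and Atp6v1c1 were called in all of these comparisons. Atp6v0d2 was at or near 0 in sham and at 2 days in both cell types and was counted at 14 days; only those counts carried it past the filter on low values, so its calls are a description.

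Single-cell RNA was counted by Drop-seq, which pairs single cells with barcoded beads in droplets, in 29 libraries of C57BL/6J mice. In stroke mice a middle cerebral artery was blocked for a time and then reopened, and control mice had a sham operation. Brains were digested with papain in the presence of a transcription inhibitor and sorted for endothelial cells, microglia and CD45high leukocytes, and blood gave circulating leukocytes. The sort sets which cells a library can hold, so shares of whole tissue cannot be read from these data. Young brains came from males of 8 to 10 weeks in 4 sham libraries of day 2, 4 stroke libraries of day 2 and 4 stroke libraries of day 14. Aged brains came from mice of 17 to 20 months in 2 sham libraries of day 2 (1 male, 1 female), 3 stroke libraries of day 2 (1 male, 2 female) and 1 stroke library of day 14 (female). Blood came from young males in 4 sham libraries of day 2, 4 stroke libraries of day 2 and 3 stroke libraries of day 14. Each brain library pooled 4 to 5 hemispheres and each blood library pooled 2 mice, so p-values measure the spread between pools. Sham libraries were made at day 2, so both stroke times were set against the same sham libraries, and a day 14 sham was not analysed here.

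Lysosomes are acidic organelles that break down proteins, lipids, sugars and engulfed material. The vacuolar ATPase fills them with protons: its V1 sector splits ATP in the cytosol and turns a rotor whose V0 sector carries protons through the membrane. Microglia and macrophages take up cell debris and myelin after brain injury and digest it in this compartment. The transcription factors TFEB, TFE3 and MITF are known to bind short E-box elements in the promoters of many lysosomal genes, and the longer form with flanking T and A is the core of the element named CLEAR.

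Promoter sequence was available from RefSeq (GRCm38.p6) for 26 of the 32 genes, as 250 bases before to 50 bases after the gene start. Both strands were searched for CACGTG, for TCACGTGA, which contains it, and for TCACATGA, whose other strand reads TCATGTGA. The 26 genes have 32 promoters among the 32851 searched. CACGTG was in 7.15% of all promoters and in 8 of the 32 (25%), from 8 genes. TCACGTGA was in 0.974% of promoters and in 5 of the 32 (15.6%, of Atp6v0d1, Atp6v0e, Atp6v1a, Mcoln1 and Gla), and TCACATGA was in 0.986% of promoters and in 5 of the 32 (15.6%, of Atp6v0c, Gla, Tpp1, Ppt1 and Grn). The lines below show the stretch with the match, 5′ to 3′ on the gene's strand, for the 4 genes with TCACGTGA that were called in a brain comparison, and for Grn as an example of TCACATGA. Capitals mark the match. Gla has 3 matches and lies at chrX:134601153-134601255 on the minus strand, Atp6v0d1 at chr8:105566045-105566108 (minus), Atp6v0e at chr17:26676358-26676415 (plus), Atp6v1a at chr16:44139344-44139431 (minus) and Grn at chr11:102430257-102430343 (plus).
Gla: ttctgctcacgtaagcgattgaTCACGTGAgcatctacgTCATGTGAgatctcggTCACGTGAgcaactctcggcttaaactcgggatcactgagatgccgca
Atp6v0d1: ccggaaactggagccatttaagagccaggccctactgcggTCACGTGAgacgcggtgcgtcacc
Atp6v0e: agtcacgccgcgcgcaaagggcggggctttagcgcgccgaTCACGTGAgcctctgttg
Atp6v1a: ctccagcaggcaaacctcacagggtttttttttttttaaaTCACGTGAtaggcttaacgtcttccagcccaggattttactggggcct
Grn: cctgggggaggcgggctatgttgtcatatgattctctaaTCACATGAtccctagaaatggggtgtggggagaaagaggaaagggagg
A match describes these letters in this window and is not a measured binding site.

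The tables held 106977 cells, 1143 to 6328 per library, with total counts of 819438 to 5855047 and a median of 321 to 1363 counts per cell. Levels are given as CPM, a gene's share of all counts summed over the cells of one type in one library, scaled to a fixed total. The authors' type codes were checked against marker genes. In young sham brain the microglia list summed to at least 14583 CPM in Mg cells, the monocyte and macrophage list to at least 37245 CPM in MdC cells, and the endothelial list to at least 24912 CPM in EC cells. BAM cells carried border macrophage markers (at least 3362 CPM in sham) beside a monocyte and macrophage list of at least 12063 CPM. Of 106624 barcodes, 345 (0.324%) occurred in more than 1 library.

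Before any comparison, 2 sets of cells stood apart from their type. Replicate 3 of young stroke at day 2 held 58 Mg cells with 26321 counts, and its microglia list summed to 222 CPM. Tmem119, P2ry12 and Fcrls, which define microglia, were at 42.2, 3.25 and 0 CPM there, while Lyz2, Ly6c2 and Plac8 of monocytes were at 3443, 385 and 300 CPM. These Mg cells go against their label. Without that library the same 10 module genes were called in Mg at day 2, and the same 4 between day 14 and day 2, so values are given with it, and the folds without it where they are named. In BAM cells, sham replicate 4 (52 cells) had Pf4 at 247 CPM and Mrc1 at 1163 CPM, where the other sham libraries had 2832 to 3814 CPM and 3948 to 5701 CPM.

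Microglia, MdC and BAM cells carried a larger share of module RNA than endothelial cells or lymphocytes. Summed over the 32 genes, Mg cells of young sham brain held 18932, 15048, 14456 and 15024 CPM. At day 2 after stroke the Mg sum was 18731, 17932, 18446 and 21142 CPM, and at day 14 it was 20659, 19211, 27707 and 19835 CPM. The day 14 libraries all lay above the sham libraries, while the day 2 libraries overlapped them through sham replicate 1. MdC cells, few in sham brain (43 to 99 per library), summed to 11671, 8447, 8833 and 7773 CPM in sham, to 17546, 18076, 19618 and 18592 CPM at day 2 and to 19656, 16910, 23889 and 15876 CPM at day 14. Stroke and sham did not overlap in MdC at either time.

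Most other types gave lower sums or no shift that set the groups apart. Blood neutrophils at day 14 lay above sham, at lower sums than Mg or MdC cells. In brain granulocytes, described below, every stroke library lay above every sham library. BAM cells summed to 7340 to 17100 CPM in sham (12448 to 17100 CPM without replicate 4, which stood apart), 16136 to 21562 CPM at day 2 and 12435 to 19171 CPM at day 14. EC cells stayed between 2208 and 3242 CPM in all 12 young libraries. Brain T cells and B cells held 2611 to 4696 CPM and 1991 to 4504 CPM. Blood monocytes (Mo) stayed between 9534 and 11409 CPM over all 11 blood libraries, and blood neutrophils (Neu) held 3882 to 4960 CPM in sham and 5289 to 6151 CPM at day 14. The type with the highest level in young sham brain was Mg for 14 of the 32 genes, BAM for 7 and Gran for 4, and Atp6v0d2 was at 0 in every type. At day 2 it was BAM for 12, MdC for 8 and Mg for 7, and at day 14 Mg for 15. The day 2 ranking uses Mg means that include replicate 3, whose Mg cells went against their label, and it was not repeated without that library.

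**Figure D1:**
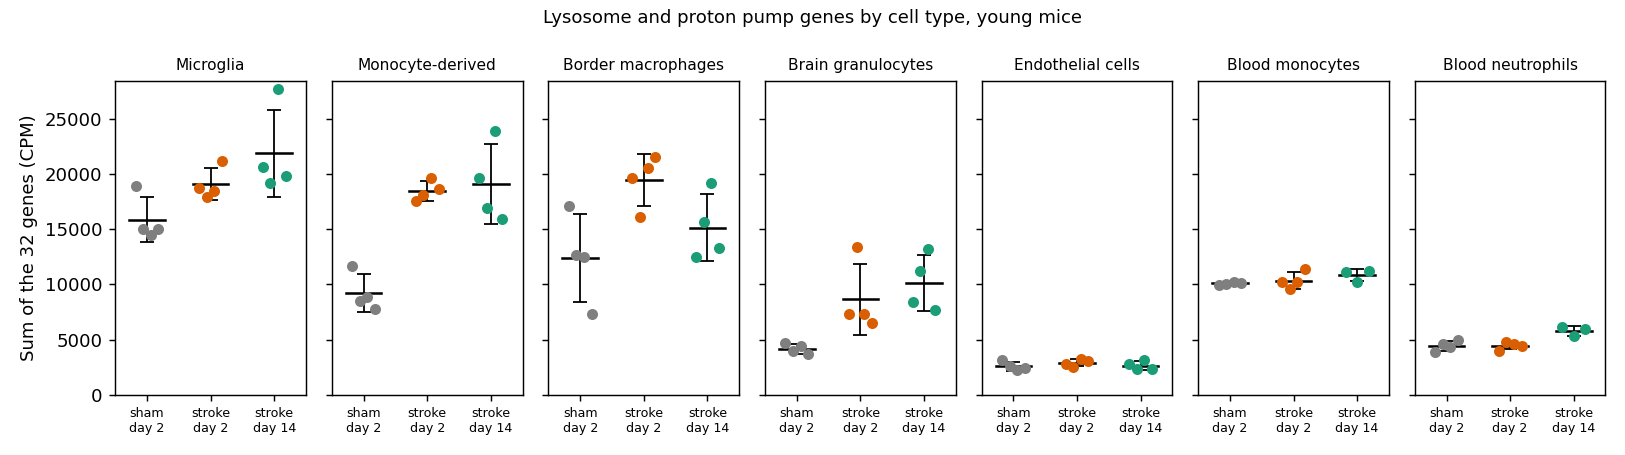
Summed CPM of the module genes (vertical axis) by library in 7 cell types, for the young sham, stroke day 2 and stroke day 14 groups. Points are libraries, the line is the group mean and bars are the SD; the MdC panel shows sham libraries at 7773 to 11671 CPM below all stroke libraries.

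In microglia the module genes that were called rose, and none fell. At day 2 against sham, 10 of 32 were called and all were higher, where 31.4% of all 10145 genes tested were called and 15.7% were called higher. At day 14 against sham, 16 of 32 were called and all were higher, where 15.2% of genes were called and 10.6% were called higher. The day 14 count includes Atp6v0d2, which passed the filter on low counts only through its day 14 libraries and so had to differ. A gene was called at a Benjamini-Hochberg adjusted p under 0.05 over all genes tested in edgeR. The median log2 fold change of the module was 0.34 at day 2 and 0.94 at day 14, while that of every gene tested was −0.05 and −0.04. By role, the genes called at day 2 and at day 14 were 2 and 2 of 6 in V0, 2 and 3 of 5 in V1, 0 and 0 of 2 accessory proteins, 2 and 4 of 8 membrane proteins, 3 and 5 of 8 enzymes, and 1 and 2 of 3 activators and carriers. The 22 genes not called at day 2 ranged from −0.80 to 0.61 and the 16 not called at day 14 from −0.39 to 1.07 on the log2 scale.

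These folds are fitted after TMM scaling, which sets libraries against each other by the bulk of their genes, so they can exceed the ratio of the CPM values. Scaling by library size alone shifted the all-gene median in Mg at day 14 from −0.04 to −0.49, called 10 module genes in place of 16, and called 670 of 3425 genes higher in place of 1071 of 1544. At day 2 it called 10 module genes, 9 of them higher, with 1273 of 3391 genes higher in place of 1588 of 3182. DESeq2 at day 2 called 10 module genes, 8 of them higher, and 1224 of 3409 genes higher. The subtypes that made up Mg cells also differed between groups: Mg1 and Mg2 led in sham, Mg4 and Mg5 at day 2 and Mg3 at day 14. A change of level within cells and a change of subtype mix cannot be told apart in these sums. The monocyte and macrophage list in Mg cells summed to 235 to 398 CPM in sham, 520 to 4527 CPM at day 2 and 2130 to 3105 CPM at day 14. Most of it was Lyz2, at 233 to 375 CPM in sham, 520 to 3443 CPM at day 2 and 2125 to 3035 CPM at day 14. Ly6c2 was at no more than 27.7 CPM and Plac8 at no more than 23.8 CPM at day 14. The part of these markers in the results was not tested.

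**Figure D2:**
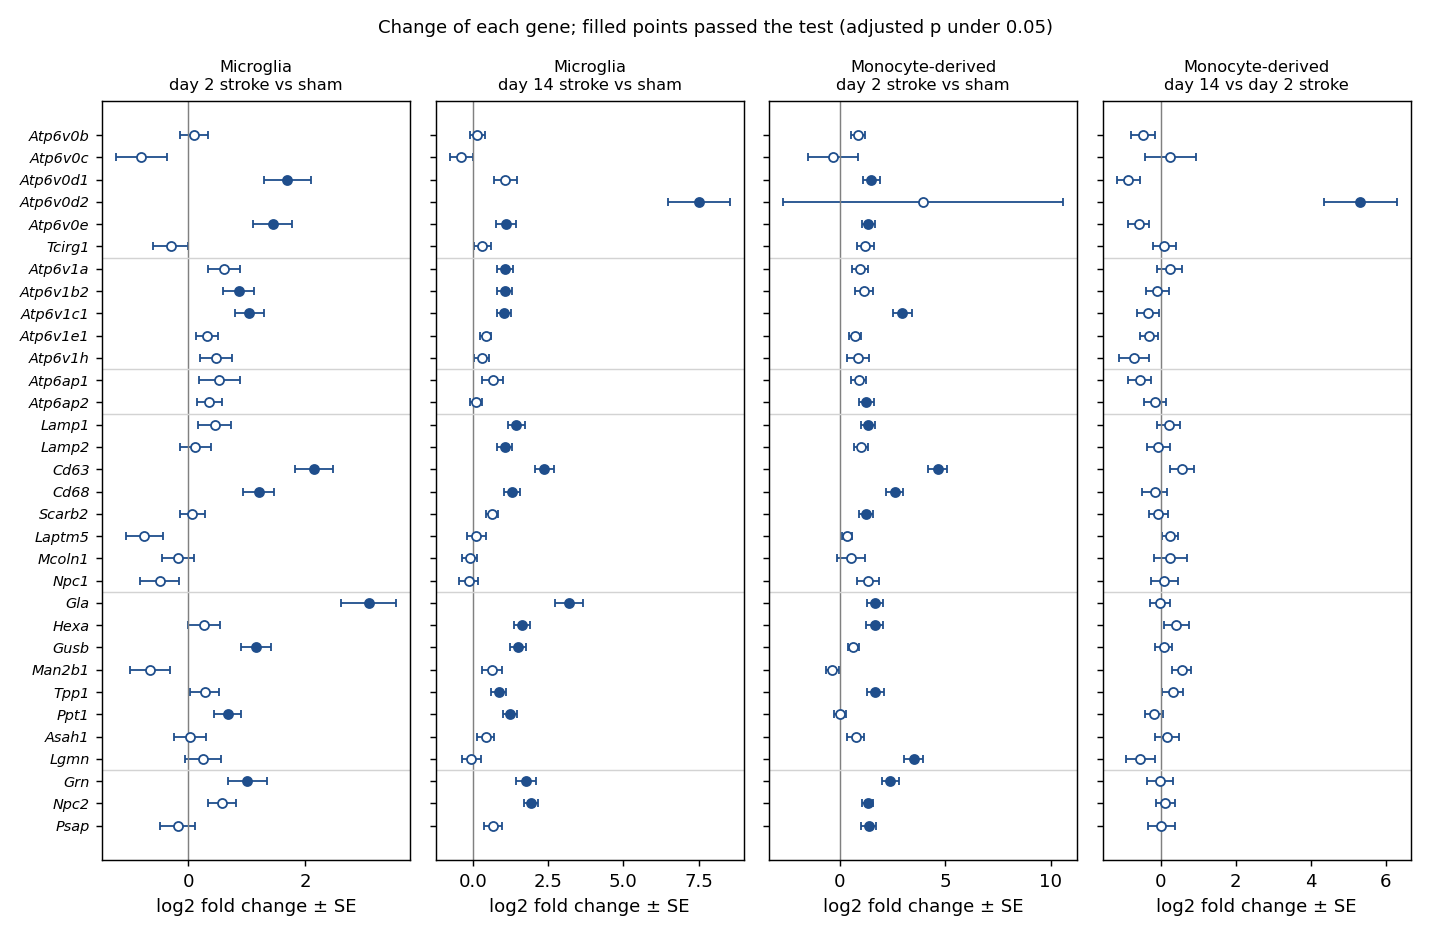
Log2 fold change (horizontal axis, which differs between panels) with its standard error for the module genes in 4 comparisons of young brain, ordered by role. Filled points passed the test: 10 in Mg at day 2, 16 in Mg at day 14, 15 in MdC at day 2 and 1 in MdC between day 14 and day 2.

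Among V0 genes in microglia, the subunits d1 and e and the second d isoform were called. Atp6v0d1, the usual d subunit that couples the rotor to V1, read 109, 68.8, 41.7 and 33.5 CPM in sham, 160, 116, 418 and 194 CPM at day 2 and 84.9, 95.5, 139 and 63.3 CPM at day 14. Every day 2 library was above every sham library, with a log2 fold change of 1.69 ± 0.40 (SE, adjusted p = 0.00679, 1.52 without day 2 replicate 3), while day 14 overlapped sham with 1.07 ± 0.38 (adjusted p = 0.0689). Atp6v0e, a small V0 subunit, read 190, 236, 149 and 162 CPM in sham, 309, 283, 1124 and 451 CPM at day 2 and 277, 244, 376 and 261 CPM at day 14. It did not overlap sham at either time and rose by 1.44 ± 0.34 (adjusted p = 0.00681) and 1.11 ± 0.33 (adjusted p = 0.0359). The value of 1124 CPM is from the library that stood apart, and the day 2 fold without it was 1.11. The day 14 call was lost with library size scaling (0.66) and without sham replicate 1, 3 or 4 or day 14 replicate 1 or 3 (0.91 to 1.14). Atp6v0d2, the d isoform known from osteoclasts and macrophages, had no count in any sham or day 2 library and read 11.2, 7.22, 27.9 and 9.05 CPM at day 14. That is 89 counts against 0, at least 26.5-fold higher than sham when sham is set to 3 counts over the group. Its call is not support of its own, since only the day 14 counts carried it past the filter, and it could be tested in 16 of 20 alternatives. Of the other V0 genes, Tcirg1, the a3 subunit, had −0.30 ± 0.30 and 0.31 ± 0.29 at the 2 times, and Atp6v0b had 0.09 ± 0.24 and 0.15 ± 0.24. Atp6v0c, the ring subunit, had −0.80 ± 0.43 and −0.39 ± 0.38 at levels of 5.04 to 49.7 CPM (how its near-identical gene copies were counted is not given in the sources used here).

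Of the V1 genes, Atp6v1c1 and Atp6v1b2 were called at both times and Atp6v1a at day 14. Atp6v1c1, the C subunit that helps hold V1 to V0, read 146, 122, 89.3 and 139 CPM in sham, 193, 161, 389 and 271 CPM at day 2 and 165, 156, 236 and 178 CPM at day 14. Neither stroke group overlapped sham, and the gene rose by 1.04 ± 0.25 (adjusted p = 0.00852) and 1.03 ± 0.24 (adjusted p = 0.0129). Atp6v1b2, the B subunit found in most cells, had sham values of 91.8, 57.1, 46.1 and 65.4 CPM, day 2 values of 108, 112, 109 and 95.7 CPM and day 14 values of 102, 68.9, 134 and 82.2 CPM. It rose by 0.86 ± 0.26 (adjusted p = 0.0222) and 1.05 ± 0.25 (adjusted p = 0.0119), with overlap at day 14. Atp6v1a, the catalytic A subunit, read 91.9, 130, 170 and 166 CPM in sham and 168, 148, 217 and 317 CPM at day 14. These groups overlapped, and it was called at 1.06 ± 0.26 (adjusted p = 0.0172) at day 14 only, with 0.61 ± 0.27 (adjusted p = 0.101) at day 2. The day 2 call of Atp6v1b2 was lost with DESeq2 (0.63) and without the top 5% of cells by counts (0.74). The calls of Atp6v1a, Atp6v1b2 and Atp6v1c1 at day 14 and of Atp6v1b2 at day 2 were lost with library size scaling, at log2 fold changes of 0.62, 0.57, 0.57 and 0.70. Leaving out sham replicate 2 ended the calls of Atp6v1a at day 14 (1.05) and of Atp6v1b2 at day 2 (0.81), and leaving out sham replicate 3 ended that of Atp6v1c1 at day 14 (0.93). Among the accessory proteins, Atp6ap1 had 0.53 ± 0.35 and 0.65 ± 0.34, and Atp6ap2 had 0.36 ± 0.21 and 0.10 ± 0.21, none called.

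Among lysosomal membrane proteins Cd63 and Cd68 rose at both times. Cd63, a tetraspanin of late endosomes and lysosomes, read 509, 604, 456 and 531 CPM in sham, 1714, 1789, 1993 and 3026 CPM at day 2 and 1780, 1688, 2704 and 1709 CPM at day 14. All 8 stroke libraries were above all 4 sham libraries, and Cd63 rose by 2.15 ± 0.32 (adjusted p = 0.000397) and 2.37 ± 0.32 (adjusted p = 0.000246). Cd68, a heavily glycosylated protein of phagocyte lysosomes, read 671, 682, 491 and 513 CPM in sham, 1008, 955, 1837 and 1393 CPM at day 2 and 1056, 898, 1347 and 868 CPM at day 14. It too did not overlap sham, and its day 2 fold was 1.20 ± 0.27 (adjusted p = 0.00518), a call lost with each cell's counts rounded up (0.87, adjusted p = 0.103). Lamp1, a main structural glycoprotein of the lysosome wall, read 1015, 991, 849 and 944 CPM in sham, 901, 993, 1440 and 1490 CPM at day 2 and 1599, 1471, 2664 and 1698 CPM at day 14. Only the day 14 libraries were clear of sham. Lamp2, its relative with a role in autophagy, read 445, 478, 476 and 481 CPM in sham and 631, 482, 1015 and 687 CPM at day 14, a rise of 1.05 ± 0.26 (adjusted p = 0.0171). The call of Lamp2 was lost with library size scaling (0.59), with each cell's counts rounded up (1.01) and without sham replicate 3 or sham replicate 4 (1.07 in both). Laptm5, another lysosomal membrane protein, read 3011, 2999, 2866 and 2787 CPM in sham and 1736, 2087, 791 and 1571 CPM at day 2. The groups did not overlap, and its fold of −0.75 ± 0.32 was not called (adjusted p = 0.088). Scarb2, a receptor that carries glucocerebrosidase to lysosomes, was at 0.63 ± 0.20 at day 14 (adjusted p = 0.0508). The channel Mcoln1 and the cholesterol transporter Npc1 lay between −0.49 and −0.10 at the 2 times.

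Among enzymes Gla had the highest fold. Gla, alpha-galactosidase A, which is deficient in Fabry disease, read 2.85, 6.75, 10.3 and 7.76 CPM in sham, 50.5, 34.5, 112 and 55.2 CPM at day 2 and 53.8, 22.6, 73.4 and 27.2 CPM at day 14. Every stroke library was above every sham library, and Gla rose by 3.08 ± 0.47 (adjusted p = 0.000524) and 3.19 ± 0.46 (adjusted p = 0.000398). Gla passed the filter on low counts with the help of its stroke libraries, since its sham libraries alone fell short. Gusb, beta-glucuronidase, read 215, 205, 295 and 272 CPM in sham and 586, 501, 298 and 532 CPM at day 2, a rise of 1.16 ± 0.26 (adjusted p = 0.00517). Hexa, the alpha subunit of beta-hexosaminidase, read 727, 448, 462 and 501 CPM in sham, 604, 594, 448 and 627 CPM at day 2 and 1150, 1039, 1621 and 948 CPM at day 14. Day 2 overlapped sham, and day 14 was clear of both, with a rise of 1.63 ± 0.27 over sham (adjusted p = 0.00118). Ppt1, a thioesterase that removes palmitate from proteins, rose by 0.67 ± 0.23 at day 2 (adjusted p = 0.0361), from a mean of 211 ± 14.2 CPM to 296 ± 41.9 CPM (SD, n = 4 each). Tpp1, a tripeptidyl peptidase, was called at day 14 alone, at 0.86 ± 0.25 (adjusted p = 0.0337), with groups that overlapped. Its call was lost in 9 alternatives, among them without sham replicate 2, 3 or 4 or day 14 replicate 1, 2 or 3 (0.71 to 0.90). At day 14 Gusb read 505, 456, 596 and 462 CPM and was called too, and Lamp1, Cd68 and Ppt1 rose by 1.23 to 1.44. Lgmn, the asparaginyl endopeptidase legumain, read 3854, 2824, 2915 and 3007 CPM in sham, 4154, 3195, 2112 and 4000 CPM at day 2 and 2046, 1911, 2681 and 2145 CPM at day 14. Its CPM at day 14 was below every sham library, but its fitted fold was −0.05 ± 0.31 and it was not called.

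Among activators and carriers Npc2 and Grn rose. Npc2, the soluble cholesterol carrier, read 1026, 1150, 1064 and 1139 CPM in sham, 1249, 1311, 2194 and 1480 CPM at day 2 and 2855, 2740, 3497 and 3049 CPM at day 14. The 3 groups did not overlap, with folds over sham of 0.57 ± 0.24 at day 2 (adjusted p = 0.0827) and 1.93 ± 0.24 at day 14 (adjusted p = 0.000145). Grn, progranulin, a secreted and lysosomal protein, read 1194, 676, 667 and 689 CPM in sham, 1546, 1517, 1048 and 1658 CPM at day 2 and 2129, 1699, 2729 and 1237 CPM at day 14. It rose by 1.01 ± 0.33 at day 2 (adjusted p = 0.0323), where replicate 3 overlapped sham, and by 1.76 ± 0.33 at day 14 (adjusted p = 0.00332). Psap, the precursor of the saposin activators, had −0.18 ± 0.30 and 0.66 ± 0.30 and was not called. At day 2 the call of Grn was lost in 7 of 20 alternatives, among them without sham replicate 2, 3 or 4 or day 2 replicate 2 or 4 (0.85 to 1.05). That of Ppt1 was lost in 8, among them without sham replicate 1, 2 or 3 or day 2 replicate 4 (0.51 to 0.74). Leaving out day 2 replicate 4 left 6 of the 10 calls, with Grn at 0.85, Ppt1 at 0.51, Atp6v1b2 at 0.84 and Atp6v1c1 at 0.80. Atp6v0d1, Atp6v0e, Cd63, Gla and Gusb stayed called at day 2 under all 20 alternatives run. At day 14 the same held for Cd63, Cd68, Gla, Grn, Gusb, Hexa, Lamp1, Npc2 and Ppt1.

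Between the stroke times, 4 of 32 genes were called in microglia, all higher at day 14, where 6.93% of genes tested were called and 3.47% were called higher. Npc2 was higher at day 14 by 1.36 ± 0.24 (adjusted p = 0.00475) and Hexa by 1.37 ± 0.27 (adjusted p = 0.00887). Atp6v0d2 was at least 20.9-fold higher at day 14, against 3 counts over the day 2 group. It is 1 of the 4 calls but had to differ, as against sham, and it could be tested in 15 of 20 alternatives. Man2b1, lysosomal alpha-mannosidase, read 274, 324, 46.8 and 168 CPM at day 2 and 498, 440, 479 and 379 CPM at day 14. Its groups did not overlap, its fold was 1.30 ± 0.35 (adjusted p = 0.0394), and the call was lost in 13 alternatives, among them leaving out sham replicate 2, 3 or 4, day 2 replicate 1 or 4, or any day 14 library (1.20 to 1.39). Gla and Cd63 were not called between the stroke times, at 0.10 ± 0.42 and 0.22 ± 0.30, and Lamp1 and Lamp2 were at 0.99 ± 0.28 and 0.92 ± 0.27 (adjusted p = 0.0525 for both). Leaving out day 2 replicate 4 ended the calls of Man2b1 and Atp6v0d2. Leaving out day 14 replicate 1, 3 or 4 ended that of Man2b1 and left Atp6v0d2 too low to be tested.

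In MdC cells 15 of 32 genes rose at day 2 against sham and none fell, where 6.71% of 8080 genes tested were called and 5.66% were called higher. The module's median log2 fold change was 1.26, against 0.29 over all genes tested. The genes called were 2 of 6 in V0, 1 of 5 in V1, 1 of 2 accessory proteins, 4 of 8 membrane proteins, 4 of 8 enzymes and 3 of 3 activators and carriers. The sham libraries held 318 MdC cells in all, and several sham levels rest on few counts. Sham MdC cells were mostly subtype MdC3 (75.7%), day 2 cells mostly MdC1 and MdC2, and day 14 cells mostly MdC6 and MdC4. As in microglia, a change of level within cells and a change of subtype mix cannot be told apart in these sums. The neutrophil list in MdC cells summed to 276 to 3716 CPM in sham and 182 to 354 CPM at day 2. Tmem119 of microglia read 37.8, 0, 0 and 0 CPM in sham MdC cells and 59.2, 47.6, 41.0 and 49.7 CPM at day 2. P2ry12 overlapped, at 0 to 68.9 CPM in sham and 0 to 39.5 CPM at day 2. The part of these markers in the results was not tested. Scaling by library size called 6 module genes, with 180 of 355 genes higher in place of 457 of 542, and shifted the all-gene median from 0.29 to −0.13.

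Cd63 had the highest fold in MdC cells. It read 44.5, 78.1, 20.5 and 32.4 CPM in sham (12 counts in all), 592, 1561, 915 and 839 CPM at day 2 and 1505, 1195, 1932 and 1321 CPM at day 14, and it rose at day 2 by 4.64 ± 0.45 (adjusted p = 8.72e-05). Lgmn read 348, 188, 202 and 0 CPM in sham and 1839, 1822, 1761 and 1793 CPM at day 2, a rise of 3.51 ± 0.46 (adjusted p = 0.000527). Both genes were well clear of sham in every stroke library. Atp6v1c1 read 23.8, 20.1, 63.1 and 49.99 CPM in sham (8 counts in all) and 165, 153, 247 and 257 CPM at day 2, a rise of 2.97 ± 0.46 (adjusted p = 0.00145). Cd68 read 322, 360, 124 and 95.5 CPM in sham and 996, 1073, 1351 and 1089 CPM at day 2, a rise of 2.61 ± 0.39 (adjusted p = 0.00115). Grn read 433, 173, 186 and 109 CPM in sham and 940, 1035, 932 and 1039 CPM at day 2, a rise of 2.41 ± 0.40 (adjusted p = 0.00241). None of these genes overlapped between the groups. Npc2 read 1455, 1530, 1659 and 1582 CPM in sham and 2722, 2197, 3240 and 2962 CPM at day 2, a rise of 1.34 ± 0.26 (adjusted p = 0.006).

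The 9 further calls in MdC cells at day 2 were smaller or less firm. Tpp1 rose by 1.70 ± 0.41 (adjusted p = 0.0224), from a mean of 47.6 ± 23.6 CPM to 122 ± 27.5 CPM (SD, n = 4 each). Hexa, Gla and Atp6v0d1 rose by 1.51 to 1.67. Psap, Atp6v0e and Scarb2 were called at 1.38, 1.36 and 1.24 with groups that overlapped. Lamp1 and Atp6ap2, the accessory protein also known as the prorenin receptor, rose by 1.36 and 1.27 without overlap. Each of these 9 calls was lost under 4 to 15 of 21 alternatives. Leaving out sham replicate 2, sham replicate 3, day 2 replicate 3 or day 2 replicate 4 ended 7, 9, 8 and 7 of the 15 calls. The calls of Atp6v1c1, Cd63, Cd68, Grn, Lgmn and Npc2 held under all 21. The 17 genes not called ranged from −0.34 (Man2b1) to 3.96 (Atp6v0d2, 13 counts against 0), and Laptm5, at 974 to 1286 CPM over sham and day 2, was at 0.37 ± 0.23.

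Between day 14 and day 2, 1 of 32 genes was called in MdC cells, where 1.79% of genes tested were called, and that gene was Atp6v0d2. It read 0, 6.65, 0.854 and 0 CPM at day 2 (13 counts) and 79.4, 12.7, 92.9 and 89.9 CPM at day 14 (307 counts), with no count in sham. It passed the filter on low counts through its day 14 libraries, and without day 14 replicate 1 or 3 it was too low to be tested. Every day 14 library was above every day 2 library, and day 14 replicate 2 was far below the other 3. The log2 fold change was 5.32 ± 0.97 (adjusted p = 0.0158), and the call was lost without day 2 replicate 3 (5.09) or replicate 4 (4.98), the highest adjusted p being 0.0782. Same-numbered libraries of these 2 groups deviated together in MdC cells, and with the replicate number as a block 469 genes were called in place of 145, with 1 module gene, again Atp6v0d2, among them (5.37). As in microglia, its call is not support of its own. The other 31 genes ranged from −0.86 (Atp6v0d1) to 0.57 (Cd63), with a lowest adjusted p of 0.251. In aged MdC cells Atp6v0d2 read 0 and 0 CPM in sham, 2.01, 5.44 and 0 CPM at day 2 and 4.26 CPM in the single day 14 library, which held 87 MdC cells.

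**Figure D3:**
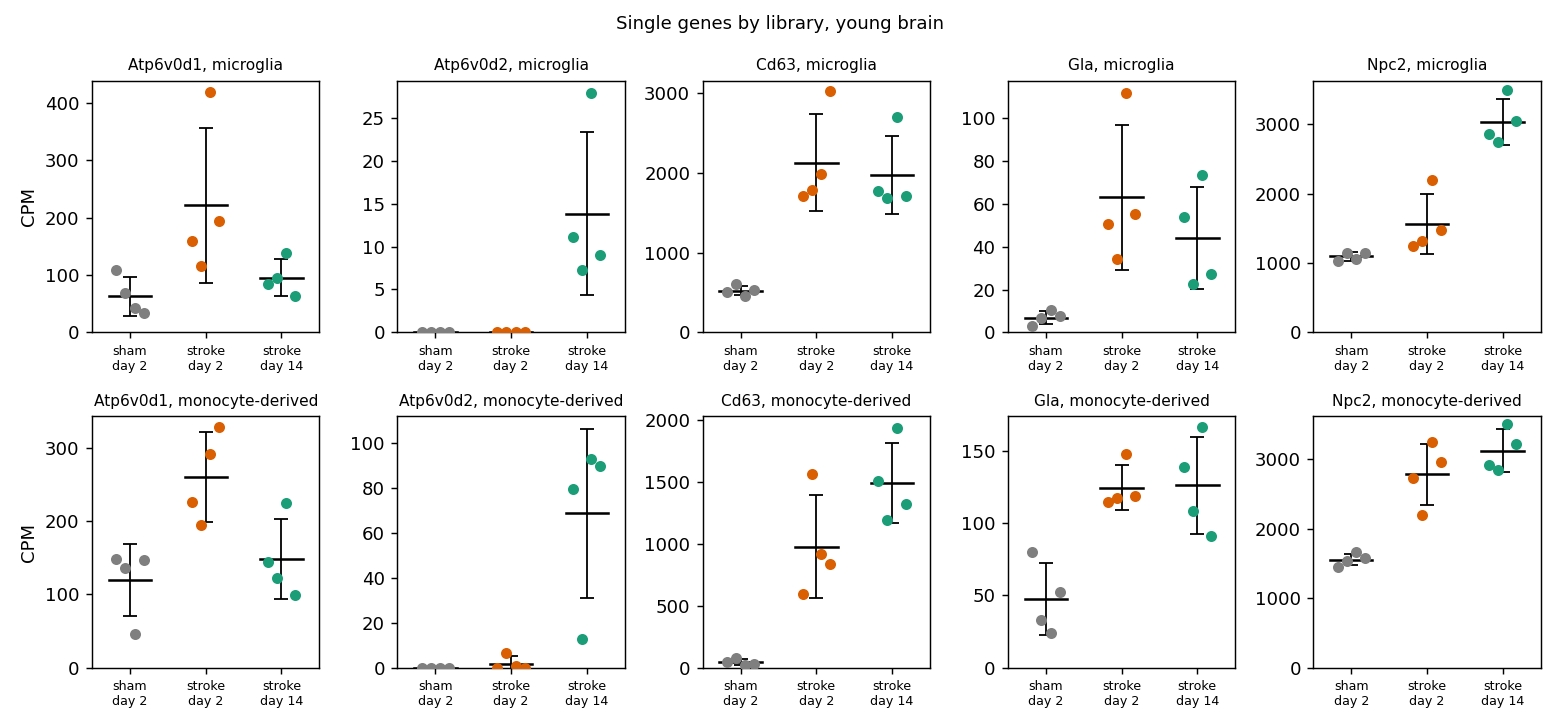
CPM (vertical axes) of Atp6v0d1, Atp6v0d2, Cd63, Gla and Npc2 in Mg and MdC cells by library in the young groups. Points are libraries, the line is the mean and bars are the SD; Atp6v0d2 is at 0 in every sham library and reaches 27.9 CPM in Mg and 92.9 CPM in MdC at day 14.

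The authors' subtypes divide these levels further. They were made by clustering the same cells, so the values below are descriptions without a test. CPM values are means over libraries with at least 20 cells of the subtype, and shares are means over all libraries of the group. Mg1 made up 53.0% of Mg cells in young sham brain, 11.04% at day 2 and 6.18% at day 14, and its module sum was 16536, 20705 and 18257 CPM. Mg4 made up 52.0% of Mg cells at day 2 and summed to 21620 CPM, against 14960 CPM in the 1.06% of sham Mg cells with that code. The day 2 library that stood apart was 96.6% Mg4, against 33.9% to 40.0% in the other 3. It was 1.72% Mg5, against 30.9% to 38.4% in the other 3. It is part of these mean shares and of the Mg4 levels at day 2, here and below. Mg3 made up 69.6% of Mg cells at day 14 and 0.795% in sham, and its sum was 20034 CPM in sham, 23190 CPM at day 2 and 22327 CPM at day 14. Mg5, 26.4% of the day 2 cells, summed to 16684 CPM, below Mg4 and Mg3 at that time. In MdC cells the sum at day 2 was 22598 CPM in MdC1, 16574 CPM in MdC2 and 12435 CPM in MdC3, which also held 9107 CPM in sham. MdC6, 34.0% of MdC cells at day 14 and 2.84% at day 2, summed to 23303 CPM and 22824 CPM at these times.

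**Figure D4:**
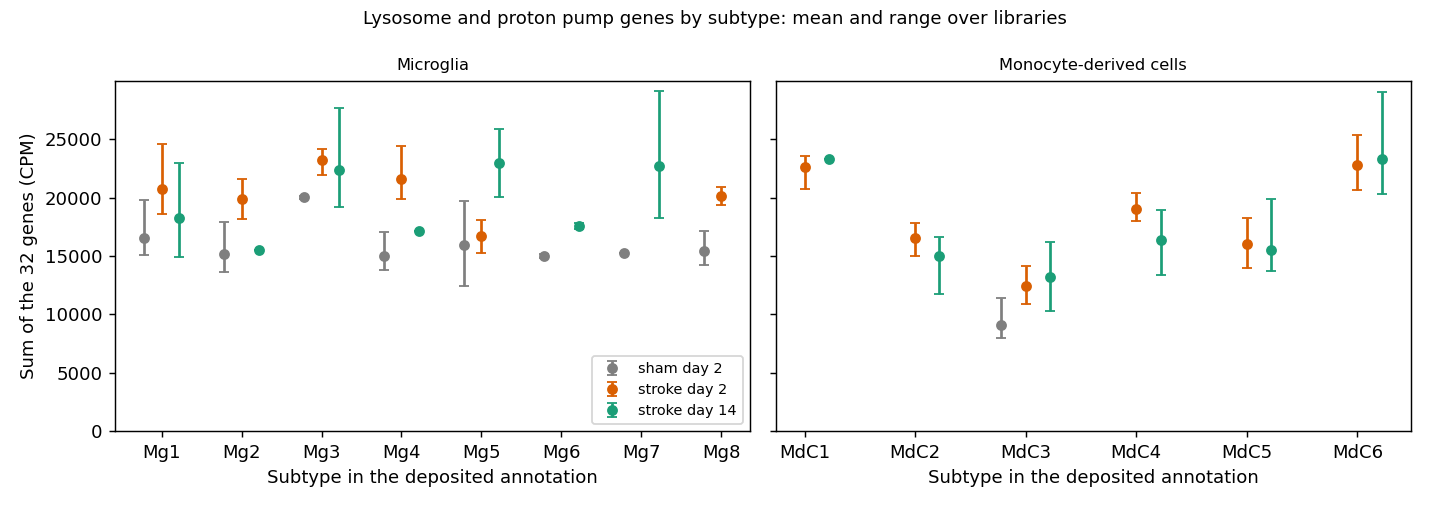
Summed CPM of the module genes (vertical axis) in the subtypes Mg1 to Mg8 and MdC1 to MdC6 of young brain; points are means over libraries and bars the range. MdC3 is lowest among MdC subtypes at day 2 (12435 CPM) and MdC1 and MdC6 are highest (22598 and 22824 CPM).

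Single genes followed the subtypes in different ways. Atp6v0d2 at day 14 read 149 CPM in MdC6 (32.5 to 227 over 4 libraries) and at most 4.49 CPM on average in the other MdC subtypes, and 11.6 CPM in MdC6 at day 2. In microglia at day 14 Atp6v0d2 read 26.8 CPM in Mg7, 11.9 CPM in Mg3, 11.7 CPM in Mg5, 1.07 CPM in Mg6 and 0 in Mg1, Mg2 and Mg4. The day 14 libraries held 52 Mg4 and 113 Mg5 cells in all, against 3415 Mg3 cells, and not every library reached the cell limit. The 0 in Mg4 rests on too few cells to be set against the level in Mg3. Mg2 was 14.8% of Mg cells in replicate 4 and 0.836% to 2.10% in the others, so its value rests mainly on replicate 4. Gla read 92.0 CPM in Mg4 and 111 CPM in Mg3 at day 2, against 11.9 CPM in Mg1 at the same time. Cd63 read 2965 CPM in Mg4 at day 2 and 955 CPM in Mg1, and 837 and 537 CPM in the same subtypes of sham. Npc2 read 3251 CPM in Mg3 and 3100 CPM in Mg7 at day 14, against 1519 CPM in Mg1, and in Mg3 itself it was 2113 CPM in sham and 1992 CPM at day 2. Hexa in Mg3 read 482 CPM in sham, 860 CPM at day 2 and 1261 CPM at day 14. Among MdC subtypes Cd63 read 2654 CPM in MdC6 at day 14 and 1771 CPM in MdC1 at day 2, against 117 CPM in MdC3 at day 2, and Lgmn read 2621 CPM in MdC1 and 501 CPM in MdC3 at day 2.

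Border macrophages gave 1 call. Of the 22 module genes tested in BAM cells, 1 rose at day 2, where 2.67% of 1313 genes tested were called, and 0 were called at day 14, where 0.0762% were called. At day 14, 1 module gene and 79 genes in all had an unadjusted p under 0.05 in edgeR, and DESeq2 called 0 module genes and 2 genes. Atp6v0d1 read 76.6, 66.4, 62.5 and 20.4 CPM in sham, 196, 219, 240 and 244 CPM at day 2 and 110, 68.6, 215 and 98.9 CPM at day 14. It rose at day 2 by 1.78 ± 0.37 with no overlap (adjusted p = 0.0304). Every sham library was too low to carry Atp6v0d1 past the filter on low counts. It passed only through stroke libraries, mainly those of day 2, so its call is not support of its own. The lowest sham value is from replicate 4, the library with low Pf4 and Mrc1, and without it the fold was 1.62 (adjusted p = 0.0467). The call was lost in 6 of 21 alternatives. These were no filter on low counts (1.78), the replicate number as a block, and leaving out sham replicate 2 (1.78) or 3 (1.80), or day 2 replicate 3 (1.87) or 4 (1.73). The 21 genes not called at day 2 ranged from −0.49 to 1.30, and Lgmn was the highest at 1.30 ± 0.44 (adjusted p = 0.1). BAM libraries held as few as 20 cells, and 10 genes of the module, among them Atp6v0d2 and Gla, were too low to be tested.

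Endothelial cells gave 2 calls among 25 genes tested at day 2, 1 higher and 1 lower, where 13.3% of 5833 genes tested were called. Atp6v1a read 202, 242, 279 and 288 CPM in sham and 170, 141, 155 and 115 CPM at day 2, and it fell by 0.71 ± 0.20 on the log2 scale (adjusted p = 0.0294) with no overlap. The call was lost in 11 of 20 alternatives, among them each of sham replicates 2, 3 and 4 and day 2 replicates 2, 3 and 4 left out (−0.73 to −0.58). Lgmn was called higher, with 0.085, 0.914, 0 and 0 CPM in sham and 107, 59.0, 54.2 and 0 CPM at day 2, 102 counts against 0 after rounding. The deposited counts are fractional, and with each cell's counts rounded up Lgmn read 131, 81.5, 49.3 and 139 CPM in sham and 157, 107, 136 and 91.8 CPM at day 2. The fold was then 0.41 (adjusted p = 0.284) and the call was lost. It was also lost without any 1 of the 4 sham libraries (7.19 to 7.31), and Lgmn passed the filter only through its day 2 counts. At day 14, 0 of 25 genes were called in EC cells, as were 0% of all genes; 3 module genes had an unadjusted p under 0.05 in edgeR, among 356 genes, and DESeq2 called 0 module genes and 10 genes. Tmem119 reached 24.6 CPM and Lyz2 397 CPM in 1 sham EC library each, and the part of these markers in the results was not tested.

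Aged microglia gave 1 call, Gla. Of 31 genes tested at day 2 against sham in aged Mg cells, 1 was called, where 2.3% of 11096 genes tested were called. That share of module genes was near that of all genes. Sham libraries alone would not have carried Gla past the filter on low counts in this fit. It was tested through its stroke libraries, so its call is not support of its own. Gla read 2.26 and 6.92 CPM in the 2 aged sham libraries and 89.2, 71.3 and 39.0 CPM in the 3 aged stroke libraries, a rise of 3.68 ± 0.57 (adjusted p = 0.00805). The call was lost without the male sham library (3.38) or the female sham library (4.66), and in a fit of the 2 aged groups alone (3.60). Cd63 read 863 and 933 CPM in aged sham and 2778, 2897 and 2048 CPM in aged stroke, with no overlap and 1.59 ± 0.44 (adjusted p = 0.0697). The difference between the stroke effects of aged and young mice was tested directly and called for 0 of 31 genes, as for 0% of all genes, with 0 module genes and 623 genes at an unadjusted p under 0.05 in edgeR, and 0 module genes and 1 gene called by DESeq2. That difference was −0.59 ± 0.52 for Cd63 and 0.55 ± 0.69 for Gla. Young libraries were all male and aged libraries of both sexes, so age and sex are mixed in this difference. The single aged library of day 14 had 28.5 CPM of Gla, 2176 CPM of Cd63, 1.16 CPM of Atp6v0d2 and 3097 CPM of Npc2 in Mg cells, with no replicate. Aged sham Mg cells had a monocyte and macrophage list of 1244 to 1246 CPM, above the 235 to 398 CPM of young sham.

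Blood cells gave few calls. In blood monocytes 0 of 28 genes tested were called at day 2 and 0 at day 14, where 0% and 0.254% of 6706 genes tested were called. At an unadjusted p under 0.05 in edgeR there were 0 module genes of 189 genes at day 2 and 1 of 366 at day 14, and DESeq2 called no module gene at either time, with 0 and 37 genes in all. Npc2, at 1113, 1398, 1530 and 1526 CPM in sham monocytes, was at 1610, 1233, 1937 and 1719 CPM at day 2. Cd63 read at most 8.98 CPM in any blood monocyte library. In blood neutrophils 0 of 27 genes were called at day 2, as were 0% of all genes, with 1 module gene among 209 genes at an unadjusted p under 0.05 in edgeR and 0 called by DESeq2.

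At day 14, 2 of 27 genes were called in blood neutrophils, both lower, where 5.99% of 4944 genes tested were called and 3.8% were called lower. The module as a whole did not fall: 19 of the 27 folds were above 0, with a median of 0.16. The 25 genes not called ranged from −0.64 to 0.96. The module sum in these cells was higher at day 14 than in sham, as given above. Lamp2 read 437, 451, 344 and 357 CPM in sham and 345, 276 and 279 CPM at day 14, a fold of −0.74 ± 0.21 (adjusted p = 0.0466) with overlap. Grn read 135, 110, 92.0 and 81.2 CPM in sham and 78.7, 61.8 and 60.0 CPM at day 14, a log2 fold change of −1 ± 0.27 (adjusted p = 0.0407) without overlap. Scaling by library size gave −0.39 and −0.64, called neither, and called 4 other module genes, all higher, with 293 of 392 genes higher in place of 108 of 296. It also shifted the all-gene median from 0.02 to 0.36. Each call was lost in 9 of 18 alternatives, which for both genes included leaving out sham replicate 1 or 3, day 2 replicate 3 or any of the 3 day 14 libraries (−1.13 to −0.61). The neutrophil marker list summed to 199888 to 306618 CPM in sham and 113424 to 192643 CPM at day 14 in these cells, and its part in the result was not tested. Between day 14 and day 2, 0 of 27 genes were called in neutrophils, where 4.69% of genes were called; 6 module genes and 880 genes had an unadjusted p under 0.05 in edgeR, and DESeq2 called 1 module gene and 281 genes.

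Brain granulocytes (Gran) were described without a test. Their module sum was 4651, 3953, 4373 and 3649 CPM in young sham, 7312, 13410, 7323 and 6510 CPM at day 2 and 8384, 11231, 13202 and 7712 CPM at day 14. Every stroke library was above every sham library. The neutrophil list in these cells had a mean of 269602 CPM in sham, 165171 CPM at day 2 and 62812 CPM at day 14, and its part in the result was not tested. Cd63 alone read 58.2, 221, 110 and 256 CPM in sham, 702, 2712, 705 and 960 CPM at day 2 and 1355, 1656, 2044 and 1050 CPM at day 14. Young libraries held 29 to 169 of these cells, and aged brains, with 21 to 101, gave sums of 4085 and 3724 CPM in sham and 9382, 9150 and 9813 CPM at day 2.

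Genes of related pathways, from lists chosen by function, were called in both directions in Mg cells at day 2, where 31.4% of all genes were called and 15.7% higher. Calls of these lists, here and in the next paragraph, come from the main fit alone, which kept day 2 replicate 3. How they hold under the alternatives was not examined. There 3 of 6 other proton pump subunits tested rose, with Atp6v1f highest at 1.00 ± 0.22 (adjusted p = 0.00549). Among 28 other lysosomal hydrolases and their helpers, 7 rose and 4 fell, from Galns, which cuts sulfate from keratan sulfate, at 2.41 ± 0.43 (adjusted p = 0.00142) to Sgsh, heparan N-sulfatase, at −1.33 ± 0.48 (adjusted p = 0.0492). Among 15 regulators 3 rose and 4 fell: Lamtor5, Lamtor1 and Lamtor2 of the Ragulator complex were higher, and Rptor of mTORC1, Mitf, Tfe3 and the arginine sensor Slc38a9 were lower. Lamtor5 was at 1.06 ± 0.24 (adjusted p = 0.00564) and Rptor at −1.35 ± 0.31 (adjusted p = 0.0058). Of 19 genes for sorting to and fusion with lysosomes, 4 rose and none fell. Among them Rab7b, a small GTPase of late endosomes, had 1 count in sham, 271 at day 2 and 404 at day 14 (0 to 0.383, 40.2 to 130 and 34.1 to 94.4 CPM), so it passed the filter on low counts only through stroke libraries. Of 15 autophagy genes, Gabarap rose by 0.93 ± 0.24 (adjusted p = 0.0124) and 2 fell, with the kinase Ulk1 lowest at −1.78 ± 0.49 (adjusted p = 0.0161). The 7 of 28 hydrolases, 3 of 15 regulators and 4 of 19 sorting genes called higher were near the background, and the 1 of 15 autophagy genes was below it.

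At day 14 the same lists in Mg cells gave 13 hydrolases higher and 1 lower, 1 pump subunit, 2 regulators, 3 sorting genes and 1 autophagy gene higher, and no other gene lower, where 10.6% of all genes were called higher. Against that background the hydrolase count stood above, and those of the regulators (2 of 15), sorting genes (3 of 19) and autophagy genes (1 of 15) were near it. Galns was again the highest hydrolase at 2.21 ± 0.41 (adjusted p = 0.00316) and Sgsh the lowest at −1.81 ± 0.45 (adjusted p = 0.0165). The median of the hydrolase list was 0.32 at day 2 and 0.62 at day 14, that of the regulators −0.12 and 0.22, and that of the autophagy genes −0.16 and 0.16. Between the stroke times Mitf was higher at day 14 by 1.91 ± 0.38 (adjusted p = 0.00972). In MdC cells at day 2, 3 of 5 pump subunits, 5 of 28 hydrolases, 4 of 19 sorting genes and 2 of 15 autophagy genes rose, 0 of 15 regulators were called, and none fell, where 5.66% of all genes were called higher. The sorting genes include Gga2, with 183 counts at day 2 and 0 in sham, which passed the filter only through stroke libraries and had to differ. Atp6v1d rose by 1.57 ± 0.32 (adjusted p = 0.00845), and Acp5, tartrate-resistant acid phosphatase, by 2.30 ± 0.49 (adjusted p = 0.0118). In aged Mg cells, where 2.3% of all genes tested were called, Rab7b was the 1 gene of these lists called, among 20 sorting genes tested. It went from a mean of 5.19 ± 3.83 CPM (SD, n = 2) to 85.7 ± 53.3 CPM (n = 3), at 3.85 ± 0.68 (adjusted p = 0.00955). Here too Rab7b passed the filter on low counts only through stroke libraries, so its call is not support of its own.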

How the data were processed

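The authors deposited Drop-seq data in the form of expected counts per gene symbol and cell, with the authors' total counts, percent of mitochondrial counts and cell type codes for each cell. Per the submitters' processing notes, Seurat and the build mm10 were used. The aligner, the step that left counts fractional and the cell filters are not given in the sources used here. Between 0.009% and 4.47% of non-zero deposited values per library were whole. Members, lists and tests were chosen with earlier results of these data known.

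Counts were summed per library and the authors' parent type, for libraries with at least 20 cells of the type, and rounded. CPM was computed from the deposited counts before rounding. All genes passing filterByExpr were fitted with edgeR 4.0.16 (TMM, quasi-likelihood test, two-sided, Benjamini-Hochberg, R 4.3.3), with 1 mean per group: young brain, day 2 brain of both ages, or blood. SE is the log2 fold change over the root of the F value. Full statistics are given for called members, at most the 6 highest and 6 lowest per comparison, and for the highest and lowest called gene of each further list. Doublets were not called, and leaving out the top 5% of cells by counts stood in for that. Alternatives also covered DESeq2 1.42.0, filters, scaling, rounding, the replicate number and each library left out. In the fit of day 2 brain of both ages, sex was a term in place of the replicate number. The labels do not say what a replicate number shares. Same-numbered day 2 and day 14 stroke libraries had correlated deviations in MdC cells (0.29 to 0.78), so the value with the replicate number as a block is printed beside that unpaired result. The edgeR fit was also run on simulated counts with known changes, and the outcome is not used as support here. Intervals and floors cover counting error only.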

Additional observations from a re-analysis of the deposited data

Results flagged for a closer look

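In 13 of 128 groups of 4 libraries examined, the highest or lowest library lay far from the other 3 for its group's spread. Chance gives about 1 in 20 among independent groups, but these groups share libraries, so that rate is only a rough guide. In young Mg cells of sham, replicate 1 was apart for the module sum (18932 CPM, others 14456 to 15048), Grn (1194 CPM, others 667 to 689), Tpp1 (290 CPM, others 170 to 173) and Lamp2 (445 CPM, others 476 to 481). At day 14, replicate 3 was apart in Mg cells for the module sum (27707 CPM, others 19211 to 20659) and Cd63 (2704 CPM, others 1688 to 1780), and in MdC cells for Atp6v0e (627 CPM, others 358 to 400). In MdC cells of sham, replicate 1 was apart for Psap (2523 CPM, others 963 to 1148) and replicate 3 for Atp6v0d1 (46.6 CPM, others 136 to 148). In MdC cells after stroke, replicate 2 was apart for Atp6v0d2 at day 2 (6.65 CPM, others 0 to 0.854) and at day 14 (12.7 CPM, others 79.4 to 92.9), and replicate 3 for Gla at day 2 (148 CPM, others 115 to 119). In EC cells of sham, replicate 2 was apart for Lgmn (0.914 CPM, others 0 to 0.085). This rests on fractions of a count: the group had 0 counts after rounding. With each cell's counts rounded up the libraries read 131, 81.5, 49.3 and 139 CPM.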

How the results depend on the processing

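No called member's log2 fold change changed sign under any alternative run. Over the called members and the alternatives where each was tested, 858 values kept their call and 179 lost it. Members not called in the main fit are not part of these values. Counts of all genes called stand in brackets, first in the alternative and then as reported. With library size alone for scaling, the number of members called was 10 in Mg at day 14 (3425, 1544), 6 in MdC at day 2 (355, 542), 2 in aged Mg (329, 255), and in blood neutrophils 4 at day 14 (392, 296) and 3 between the stroke times (261, 232). DESeq2 called 8 in Mg between the stroke times (876, 703), 2 in aged Mg (466, 255) and 1 in neutrophils between the stroke times (281, 232). Without the top 5% of cells the calls were 2 in Mg between the stroke times (501, 703), 0 in EC (618, 778), 2 in aged Mg (187, 255), and in neutrophils 1 at day 14 (332, 296) and 1 between the stroke times (270, 232). Fitting only the groups compared gave 2 in Mg between the stroke times (426, 703), 1 in EC (745, 778), 0 in aged Mg (0, 255) and 1 in neutrophils between the stroke times (303, 232). Without a filter on low counts BAM had 0 calls (19, 35) and neutrophils had 2 between the stroke times (408, 232), where counts rounded up gave 1 (234, 232). The cause of these shifts was not tested.

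Leaving out 1 library at a time gave 6 to 11 calls in Mg at day 2, 12 to 19 at day 14 and 2 to 4 between these times. It gave 7 to 14 in MdC at day 2 and 0 to 1 between the stroke times, 0 to 2 in BAM and 0 to 3 in EC at day 2, and 0 to 3 in aged Mg. It gave 0 to 3 in neutrophils at day 14 and 0 to 1 between the stroke times, and 0 in every run of the other comparisons. Calls over all genes in these runs are not printed here. The ranges therefore cannot be told apart from a general gain or loss of calls.

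Libraries sharing a number had a correlation of their deviations over 0.1 in 5 of 12 pairs in Mg, 4 of 12 in MdC, 6 of 12 in EC, 4 of 10 in neutrophils and 5 of 10 in monocytes. Between the stroke times alone, 3 of 4 pairs passed in Mg and 4 of 4 in MdC and in EC. Libraries closest to their own number were 5 of 12 in Mg, 7 of 12 in MdC, 7 of 12 in EC, and 5 of 11 in both neutrophils and monocytes. With the replicate number as a block, the calls were 9 in Mg at day 2 (3129, 3182), 16 at day 14 (1666, 1544) and 4 between the stroke times (512, 703), 16 in MdC at day 2 (562, 542) and 1 between the stroke times (469, 145), 0 in BAM (2, 35), 1 in EC (766, 778) and 3 in neutrophils at day 14 (338, 296) and 3 between the stroke times (302, 232). Of these neutrophil calls, Hexa and Lamp1 were higher (0.94 and 0.68 at day 14, 0.93 and 0.71 between the stroke times), Lamp2 was lower (−0.78 in both) and Grn was not called.

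A fit with the range of mitochondrial percent as a term, chosen after seeing the data, called 13 members in Mg at day 2 (3449, 3182), 12 of them higher, and 18 at day 14 (1803, 1544), and 18 in MdC at day 2 (703, 542); leaving out libraries under 50 cells, also chosen then, called 11 in MdC at day 2 (406, 542). A technical batch was not fitted, since the metadata used here name none. The mitochondrial term split libraries at a highest value of 10% in any cell. That value was 5.35% in young sham replicate 1. It was 5.27% and 3.51% in day 2 stroke replicates 1 and 2, and 6.44% and 3.68% in day 14 replicates 1 and 2. All other young brain libraries reached 17.5% to 20.1%. What this split reflects, and its part in the results, was not tested. Few cells limit sham MdC, BAM and the Mg cells of day 2 replicate 3, and fractional counts limit genes with few counts per cell.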
